A study of Mus musculus with 24 samples.

Results

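Trophoblast genes were followed in mouse pluripotent cells through conversion to expanded potential stem cells (EPSCs) and through repression of Oct4, Sox2 or Nanog. The genes were 6 transcription factors (Cdx2, Elf5, Hand1, Gata2, Gata3 and Tfap2c) and 4 keratins of simple epithelia (Krt7, Krt8, Krt18 and Krt19), taken by gene symbol. All 10 were listed in both count tables, that of J1 cells with 23095 genes and that of tet-off lines with 25476, and all 10 were tested in each. On average over a table's libraries, 8 of the 10 reached 10 normalized counts in J1 cells and 10 of 10 did in the tet-off lines.

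Poly(A) RNA was sequenced from 12 groups of 2 libraries each, with no statement that replicates were separate cultures, so the p-values measure only the spread between such libraries. The J1 table held wild-type J1 cells as ESCs (serum, LIF and 2i, the MEK and GSK3 inhibitors), as D-EPSCs (LIF, a GSK3 inhibitor, dimethindene maleate and minocycline) and as L-EPSCs (LIF with inhibitors of GSK3, MEK, Src, JNK, p38 and tankyrase). The tet-off table held 3 lines, Oct4-cKO (ZHBTc4), Sox2-cKO (2TS22C) and Nanog-cKO (NgcKO), in which the named gene is supplied by a doxycycline (Dox)-repressed transgene. Per the study, the endogenous copies of that gene are deleted in each line. Each line was sequenced as ESCs, as untreated L-EPSCs and as Dox-treated L-EPSCs. The series held no D-EPSC libraries of these lines, and the study reported that such cells could not be generated. The Dox dose and day of the RNA were not given in the labels, and each line stands for 1 cell line. The labels name both mouse embryonic fibroblast feeders and gelatin for J1 cultures; per the study's methods, EPSCs were kept without feeders before their RNA was sequenced, and the surface for the ESC libraries was not given in the sources used here. No library came from Dox-treated cells without a tet-off transgene, so the action of Dox and the loss of the factor cannot be told apart.

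Values are normalized counts, which are reads on a gene divided by the library's size factor. The libraries held 10807631 to 15069899 reads on genes, with a median of 12388816, and 1 read was worth 0.818 to 1.15 normalized counts. With Dox, Pou5f1 (the gene of Oct4) went from 6368 to 173 normalized counts in the Oct4-cKO line and Sox2 from 4834 to 50.1 in the Sox2-cKO line. Nanog went from 8983 to 3139 in the Nanog-cKO line (means of 2 libraries), so the targeted transcript kept the largest remainder there. By western blot, the study reported loss of the targeted protein with Dox in L-EPSCs of each line, Nanog included. It also reported that Oct4-cKO and Sox2-cKO L-EPSCs collapsed with Dox, while Nanog-cKO L-EPSCs were maintained with smaller and fewer colonies. The state of the cultures when RNA was taken is not given in the sources used here. Nanog RNA itself stood at 691 and 726 in Dox-treated Oct4-cKO libraries and at 654 and 733 in Dox-treated Sox2-cKO libraries. With Dox, Sox2 also went from 5481 to 245 in the Oct4-cKO line, and Pou5f1 from 8355 to 3182 in the Sox2-cKO line. In the Nanog-cKO line Pou5f1 went from 10913 to 8053 and Sox2 from 4849 to 3917 (means of 2 libraries). The RNA of the targeted gene was thus not the only one of these to fall in any line.

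Trophectoderm is the outer epithelium of the blastocyst, which forms the placenta and not the embryo proper. Cdx2, Gata3 and Tfap2c act early in its specification, Elf5 maintains trophoblast stem cells, Gata2 drives placental genes and Hand1 is needed for trophoblast giant cells and also for heart mesoderm. Oct4 in embryonic stem cells holds Cdx2 down, and loss of Oct4 is a long-known route from ESCs to trophoblast-like cells. Keratin filaments are built from pairs of a type II chain (Krt7, Krt8) and a type I chain (Krt18, Krt19), and the trophectoderm is the first tissue of the mouse embryo to assemble them.

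In the NCBIM37 (mm9) annotation, Krt8 (chr15:101827142-101834773, minus strand) and Krt18 (chr15:101858647-101862457, plus strand) are divergent neighbours 23873 bp apart, and Krt7 (chr15:101241474-101260744, plus strand) lies 566397 bp before Krt8. Krt19 (chr11:100002124-100009979, minus strand) lies in the type I cluster on another chromosome. Of the factors, Elf5 (chr2:103251845-103291146, plus), Gata3 (chr2:9778705-9811661, minus) and Tfap2c (chr2:172375093-172384122, plus) share chromosome 2 without being neighbours. Gata2 is at chr6:88143885-88157024 (plus), Hand1 at chr11:57642207-57646320 (minus) and Cdx2 at chr5:148112381-148118846 (minus).

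Promoter sequence was available for 7 of the 10 genes from RefSeq (GRCm38.p6), as 300 bases from 250 before to 50 after the start. The windows of Krt7, Krt8 and Krt18 are shown because these genes moved together below, and that of Cdx2 because it was the one member window with the octamer of Oct4, a choice made after the matches were seen. Capitals mark the motifs found on either strand, and the bases run 5′ to 3′ along the gene's strand.
Krt7, chr15:101412153-101412452, plus strand: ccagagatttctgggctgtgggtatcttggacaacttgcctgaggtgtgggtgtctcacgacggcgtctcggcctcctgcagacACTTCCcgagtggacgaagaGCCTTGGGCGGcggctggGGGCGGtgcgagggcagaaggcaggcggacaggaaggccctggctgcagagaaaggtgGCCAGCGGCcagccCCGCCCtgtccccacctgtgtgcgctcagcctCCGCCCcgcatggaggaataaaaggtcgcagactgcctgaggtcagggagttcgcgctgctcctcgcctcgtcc
Krt8, chr15:102004293-102004592, minus strand: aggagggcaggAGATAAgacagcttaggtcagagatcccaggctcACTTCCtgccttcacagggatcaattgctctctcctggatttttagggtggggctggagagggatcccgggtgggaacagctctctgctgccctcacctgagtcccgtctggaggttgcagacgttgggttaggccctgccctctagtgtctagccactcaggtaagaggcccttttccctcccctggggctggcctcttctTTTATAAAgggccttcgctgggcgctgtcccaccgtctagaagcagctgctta
Krt18, chr15:102027966-102028265, plus strand: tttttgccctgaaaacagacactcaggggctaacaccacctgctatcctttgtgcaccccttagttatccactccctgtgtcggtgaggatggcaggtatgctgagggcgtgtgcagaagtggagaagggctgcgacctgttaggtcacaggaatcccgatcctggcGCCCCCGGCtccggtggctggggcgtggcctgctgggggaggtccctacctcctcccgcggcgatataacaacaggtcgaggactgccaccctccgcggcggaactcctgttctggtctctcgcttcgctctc
Cdx2, chr5:147307200-147307499, minus strand: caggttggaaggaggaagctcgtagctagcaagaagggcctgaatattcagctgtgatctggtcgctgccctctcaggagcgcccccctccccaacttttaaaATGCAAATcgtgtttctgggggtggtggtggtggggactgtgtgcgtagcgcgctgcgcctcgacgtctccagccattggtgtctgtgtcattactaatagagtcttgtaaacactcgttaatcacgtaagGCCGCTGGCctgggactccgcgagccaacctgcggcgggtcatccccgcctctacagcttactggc

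The motifs searched on both strands were the TATA box TATAAA (in 13.6% of 32851 RefSeq promoters of this length), the GC box GGGCGG (35.7%), the octamer ATGCAAAT (1.74%), the AP-2 palindrome GCCNNNGGC (16.6%), the GATA site AGATAA (11.2%), the TEAD site GGAATG (14.7%), the AP-1 site TGANTCA (7.81%), the ETS site GGAAGT (23.8%) and the CDX site TTTATTG (4.6%). The Krt7 window held 4 GC boxes, 2 AP-2 palindromes, 1 of which overlaps a GC box, and 1 ETS site. The Krt18 window held 1 AP-2 palindrome, at -83 from the start, and the Krt8 window held overlapping TATA boxes at the start on both strands, 1 GATA site and 1 ETS site. In the Cdx2 window the octamer began at -147 and 1 AP-2 palindrome at -16 from the start. The 3 keratin windows therefore shared no single one of these motifs, and a match of letters is not evidence that a factor binds.

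The main question was how these genes changed when the Oct4, Sox2 or Nanog transgene was repressed by Dox in L-EPSCs. Nanog RNA was reduced rather than removed in the Nanog-cKO line, where the study reported loss of Nanog protein. After Dox, 8 of the 10 were called higher in Oct4-cKO L-EPSCs and 9 of 10 in Sox2-cKO L-EPSCs, with none lower, whereas in Nanog-cKO L-EPSCs 2 were higher and none lower. A gene was called when limma's adjusted p was under 0.05 and the log2 difference beyond 1. Of the 24007 genes tested, 8.53% were called higher in the Oct4-cKO comparison, 7.79% in the Sox2-cKO comparison and 2.80% in the Nanog-cKO comparison, and 10.8%, 7.32% and 2.59% were called lower. The median log2 difference over all genes was 0 in each. In these bulk libraries, more cells of a type and more RNA per cell cannot be told apart.

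**Figure D1:**
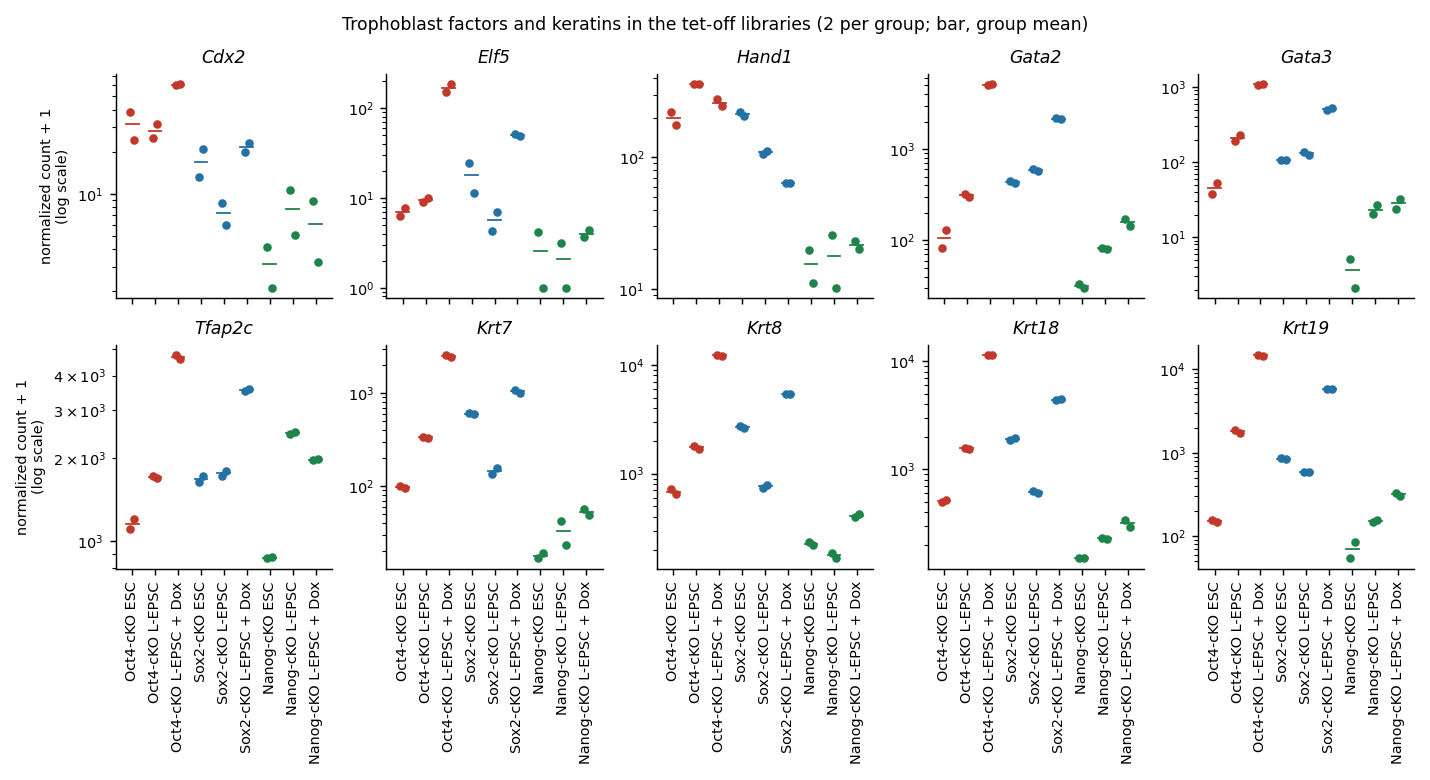
Normalized counts plus 1 (log scale) of each gene in the 18 tet-off libraries, by group (2 points per group, bar at the mean). The Dox-treated Oct4-cKO libraries are the highest for 9 of the 10 genes, while Hand1 is highest in untreated Oct4-cKO L-EPSCs at 360.2.

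All 4 keratins rose with Dox in both the Oct4-cKO and the Sox2-cKO line. Krt8, the type II partner of Krt18, stood at 1798 and 1689 normalized counts in untreated and 12336 and 12025 in Dox-treated Oct4-cKO L-EPSCs. For Sox2-cKO L-EPSCs the Krt8 values were 737 and 787 untreated and 5346 and 5337 with Dox. Both Dox-treated pairs lay far above their untreated pairs, and replicates lay close together. On the log2(normalized count + 1) scale the difference was 2.80 for Oct4-cKO and 2.81 for Sox2-cKO, both with an SE of 0.0664, or 6.99-fold and 7.01-fold (limma, adjusted p = 4.88e-15 and 9.48e-15).

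Krt18, the type I partner, stood at 1578 and 1549.5 untreated and 11458 and 11447 with Dox in the Oct4-cKO line. It stood at 633 and 606 and then 4404 and 4436 in the Sox2-cKO line. The groups were again widely apart, by 7.32-fold (limma, adjusted p = 6.75e-16) and 7.13-fold (limma, adjusted p = 1.93e-15).

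Krt19, a type I keratin without a tail domain, stood at 1857 and 1746 in untreated and 14832 and 14558 in Dox-treated Oct4-cKO L-EPSCs. In the Sox2-cKO line it stood at 588 and 582 untreated and 5849.6 and 5752 with Dox. The log2 differences were 3.03 and 3.31, or 8.16-fold and 9.91-fold (limma, adjusted p = 6.69e-12 and 4.04e-12). Krt7, a type II keratin of glandular and trophoblast epithelium, had the fewest counts of the 4, going from 337 and 332 to 2583 and 2445 in the Oct4-cKO line. Sox2-cKO values of Krt7 went from 134 and 157 to 1088 and 997. Its changes, 7.49-fold and 7.15-fold, were of the same order as those of the other 3 keratins (limma, adjusted p = 1.59e-09 and 3.14e-09).

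Summed over the 4 keratins, the level went from 5444 to 40842 normalized counts in the Oct4-cKO line and from 2111 to 16605 in the Sox2-cKO line. It went from 587 to 1092 in the Nanog-cKO line (means of 2 libraries).

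Among the 6 transcription factors, Gata2 had the largest log2 difference after Elf5 in the Oct4-cKO line. It stood at 323 and 300.03 in untreated and 5039 and 5136 in Dox-treated Oct4-cKO L-EPSCs, a 16.3-fold rise (log2 4.03, SE 0.146; limma, adjusted p = 1.04e-12). In the Sox2-cKO line it stood at 610.4 and 572 untreated and 2171 and 2119 with Dox, a 3.63-fold rise (limma, adjusted p = 2.34e-08). The untreated Sox2-cKO libraries were thus above the untreated Oct4-cKO libraries, and the Dox-treated ones below.

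Gata3, its relative, which acts in early trophectoderm, stood at 192 and 227 and then 1073 and 1089 in the Oct4-cKO line. The Sox2-cKO libraries held 136 and 123 and then 495 and 529. The pairs did not overlap, with log2 differences of 2.37 and 1.98 (limma, adjusted p = 7.26e-06 and 6.03e-05).

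Tfap2c, which encodes AP-2 gamma and is used in trophoblast and germ cells, was already abundant without Dox. Its values were 1719.7 and 1699.6 and then 4758 and 4615 in the Oct4-cKO line, and 1727 and 1799 and then 3520.0 and 3577 in the Sox2-cKO line. It had the smallest change of the genes called in both lines, at log2 1.45 and 1.01 (limma, adjusted p = 4.89e-14 and 7.97e-12). The Sox2-cKO value sat just past the fold threshold, and fell to 0.98 without untreated replicate 1 and to just under 1 without Dox-treated replicate 2.

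Elf5, an ETS factor of the trophoblast stem cell state, was near the detection floor of 3 reads in untreated L-EPSCs and well above it with Dox. The Oct4-cKO libraries held 7.99 and 8.98 untreated and 151 and 183 with Dox, and the Sox2-cKO libraries 3.24 and 5.99 untreated and 50.3 and 48.2 with Dox. The fitted log2 differences were 4.14 (SE 0.668) and 3.21 (SE 0.668; limma, adjusted p = 7.01e-05 and 0.000912). At counts this low they depend on the pseudocount, and the Sox2-cKO call was lost with a pseudocount of 0.1 (limma, adjusted p = 0.0689).

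Cdx2, the caudal-type factor that opens the trophectoderm programme, stayed low throughout. It stood at 23.96 and 30.5 untreated and 58.7 and 59.9 with Dox in the Oct4-cKO line. Sox2-cKO libraries held 7.56 and 4.99 untreated and 19.0 and 22.1 with Dox. The Dox-treated pair was above the untreated pair in both lines, by 2.15-fold and 3.00-fold. The first was not called (limma, adjusted p = 0.127) and the second was (limma, adjusted p = 0.0313). These calls were fragile. The Oct4-cKO change was called by edgeR's quasi-likelihood test (adjusted p = 0.00254) and by DESeq2 (adjusted p = 0.0187). With only the groups compared, limma called the Oct4-cKO change (adjusted p = 0.0454) and not the Sox2-cKO change (adjusted p = 0.0667). The Sox2-cKO call was also lost when any 1 of its 4 libraries was left out (log2 from 1.33 to 1.84). The highest group mean of Cdx2 was 59.3 normalized counts, in Dox-treated Oct4-cKO L-EPSCs.

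Hand1, in contrast to the others, was not called in either line and its values lay lower with Dox. It stood at 360.3 and 360.2 untreated and 276 and 245 with Dox in the Oct4-cKO line, and at 105 and 112 untreated and 62.7 and 63.0 with Dox in the Sox2-cKO line. The log2 differences were -0.47 (95% interval -1.15 to 0.22; limma, adjusted p = 0.283) and -0.77 (95% interval -1.46 to -0.088; limma, adjusted p = 0.0705).

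In the Nanog-cKO line the counts were low before and after Dox, apart from Tfap2c. Krt8 stood at 187 and 165 untreated and 394 and 422 with Dox, a 2.31-fold rise (limma, adjusted p = 1.43e-09). Krt19 stood at 148 and 155 untreated and 325 and 307 with Dox, a 2.08-fold rise (limma, adjusted p = 1.11e-05). These were the 2 genes called, and the Dox-treated pairs were apart from the untreated pairs in both.

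Krt18 in the Nanog-cKO line (231 and 223, then 339.9 and 293), Gata2 (82.0 and 79.5, then 169 and 144) and Krt7 (41.5 and 22.4, then 55.3 and 48.3) also had non-overlapping pairs. Their log2 differences of 0.47, 0.94 and 0.74 stayed under the fold threshold (limma, adjusted p = 1.24e-05, 0.000136 and 0.00803). Krt7 was called at 1.17, and Hand1 at 1.08, without untreated replicate 1, and Gata2 at 1.05 without Dox-treated replicate 2. Tfap2c lay lower with Dox, with pairs apart, at 2452 and 2484 and then 1967 and 1979.6 (log2 -0.32; limma, adjusted p = 2.02e-05, under the fold threshold). Gata3 (19.2 and 25.5, then 22.8 and 31.5), Hand1 (24.5 and 9.18, then 21.96 and 19.1) and Cdx2 (9.59 and 4.08, then 7.91 and 2.25) had overlapping pairs, and Elf5 was at or under 3 reads in every library.

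**Figure D2:**
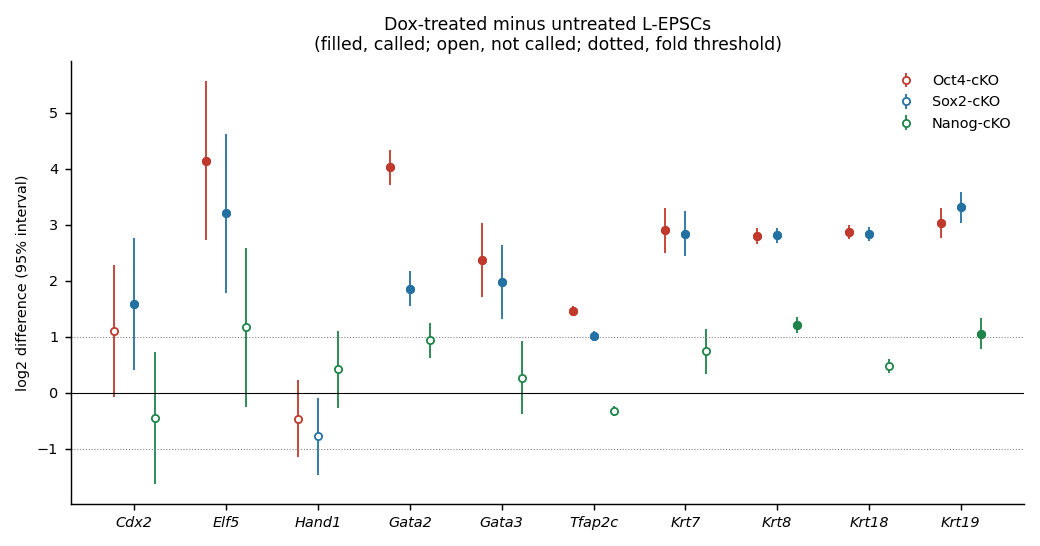
log2 difference with Dox for each gene in the 3 lines, with 95% intervals from limma (filled, called; open, not called; dotted line, the fold threshold). The 4 keratins lie between 2.80 and 3.31 in the Oct4-cKO and Sox2-cKO lines and at or below 1.21 in the Nanog-cKO line.

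The difference between lines was then tested itself, as the Dox effect in one line minus that in another. Between the Oct4-cKO and Sox2-cKO lines 1 of the 10 was called, against 2.12% of all genes with a larger and 4.69% with a smaller effect in the Oct4-cKO line. This was Gata2, whose rise was larger by log2 2.17 (95% interval 1.73 to 2.61; limma, adjusted p = 6.93e-07) in the Oct4-cKO line. For the keratins the difference was 0.067 for Krt7 (95% interval -0.50 to 0.64), -0.0041 for Krt8 (-0.20 to 0.20), 0.038 for Krt18 (-0.14 to 0.21) and -0.28 for Krt19 (-0.66 to 0.10). The intervals for Krt8 and Krt18 thus left room for a difference of at most about 0.2 either way, those for Krt7 and Krt19 for more. Tfap2c rose more in the Oct4-cKO line by 0.45, which was under the fold threshold (limma, adjusted p = 2.25e-05).

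Compared with the Nanog-cKO line, 8 of the 10 rose more in the Oct4-cKO line (all genes, 6.17% larger and 8.59% smaller effects). Likewise 6 of the 10 rose more in the Sox2-cKO line (all genes, 5.57% larger and 5.74% smaller). The same Nanog-cKO libraries enter both. The differences against the Nanog-cKO line were 2.16 and 2.10 for Krt7 (Oct4-cKO and Sox2-cKO in turn), 1.60 and 1.60 for Krt8, 2.40 and 2.36 for Krt18 and 1.97 and 2.25 for Krt19. They were 2.10 and 1.71 for Gata3 and 1.78 and 1.33 for Tfap2c. Gata2 differed by 3.09 for the Oct4-cKO line, and by 0.92 for the Sox2-cKO line, under the threshold. Elf5 differed by a fitted 2.97 for the Oct4-cKO line, which rests on Nanog-cKO libraries at the floor, a call that edgeR and DESeq2 did not make and that was kept in 1 of the 8 fits that left out a library. The Gata3 call against the Nanog-cKO line was lost in the Sox2-cKO line without Dox-treated Nanog-cKO replicate 1 (limma, adjusted p = 0.0502).

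On conversion of ESCs to L-EPSCs, before any Dox, the genes called were higher in the Oct4-cKO and Nanog-cKO lines and lower in the Sox2-cKO line. Against a log2 threshold of 0.6, 7 of the 10 were higher in Oct4-cKO L-EPSCs than in Oct4-cKO ESCs and none lower (all genes, 13.0% higher and 15.4% lower). In the Sox2-cKO line 4 were lower and none higher (all genes, 11.6% lower and 7.99% higher), and in the Nanog-cKO line 6 were higher and none lower (all genes, 12.2% higher and 14.7% lower).

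Krt19 gave the largest change, with 158 and 148 normalized counts in Oct4-cKO ESCs and 1857 and 1746 in untreated L-EPSCs. This is an 11.7-fold rise (log2 3.55, SE 0.128; limma, adjusted p = 1.16e-12). Krt8 went from 720.4 and 646 to 1798 and 1689, Krt18 from 498 and 516 to 1578 and 1549.5 and Krt7 from 98.3 and 95.7 to 337 and 332. Their log2 differences of 1.35, 1.62 and 1.78 all passed the test (limma, adjusted p = 4.97e-11, 1.08e-12 and 6.86e-07). Gata3 rose by 2.23 and Gata2 by 1.59 (limma, adjusted p = 1.41e-05 and 1.21e-07). Hand1 went from 219.6 and 177 to 360.3 and 360.2 and passed narrowly (log2 0.87; limma, adjusted p = 0.0392), but not when any 1 of the 4 libraries was left out.

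In the Sox2-cKO line the keratins went the other way. Krt8 went from 2715 and 2621 in ESCs to 737 and 787 in untreated L-EPSCs. Krt18 went from 1861 and 1948 to 633 and 606 and Krt7 from 605 and 591 to 134 and 157. The ESC pairs were all well above the L-EPSC pairs, by 3.50-fold, 3.07-fold and 4.11-fold (limma, adjusted p = 4.36e-12, 3.34e-12 and 2.44e-07). Krt19, which went from 861 and 835 to 588 and 582, differed by -0.54, short of the threshold. Hand1 was lower in L-EPSCs (log2 -0.97; limma, adjusted p = 0.0264), which did not hold when any 1 of the 4 libraries was left out. Gata2, Gata3 and Tfap2c differed by 0.44, 0.30 and 0.071 and were not called. Elf5 went from 23.2 and 10.4 to 3.24 and 5.99, and Cdx2 from 12.1 and 19.9 to 7.56 and 4.99. Both had pairs apart, with log2 differences of -1.61 and -1.21 that limma did not call (adjusted p = 0.0729 and 0.105). Both were called lower by edgeR's quasi-likelihood test (adjusted p = 0.00427 and 0.0341) and by DESeq2 (adjusted p = 0.00822 and 0.0485) on the recovered reads.

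In the Nanog-cKO line conversion raised Gata3 from 4.18 and 1.12 to 19.2 and 25.5 and Tfap2c from 863 and 869.9 to 2452 and 2484. The Gata3 change rests on ESC libraries with 4 and 1 reads of the gene. The Tfap2c log2 difference was 1.51 (limma, adjusted p = 5.43e-14), the largest among the 3 lines. Gata2 and Krt19 were higher by 1.37 and 1.17 (limma, adjusted p = 8.22e-07 and 1.07e-06). Krt7 and Krt18 passed the fold threshold at 0.83 and 0.61, and fell under it, to 0.40 and 0.58, without untreated L-EPSC replicate 1. With only the groups compared in the fit, the calls of Gata3, Krt19 and Krt7 were lost (limma, adjusted p = 0.0797, 0.0914 and 0.307). Krt8 lay lower after conversion, at 187 and 165 from 234 and 219 (log2 -0.36, not called).

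**Figure D3:**
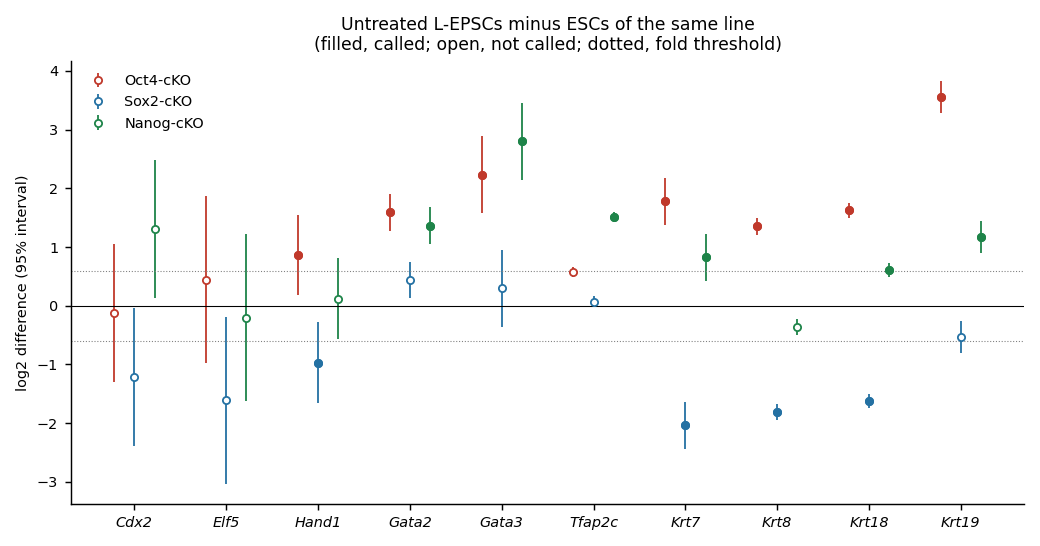
log2 difference between untreated L-EPSCs and ESCs of the same line for each gene, with 95% intervals from limma (filled, called; open, not called; dotted lines, the fold threshold). The 4 keratins are between 1.35 and 3.55 in the Oct4-cKO line and between -2.04 and -0.54 in the Sox2-cKO line.

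The conversion effects were compared between lines after these values had been seen. The Oct4-cKO effect exceeded the Sox2-cKO effect for 7 of the 10 (all genes, 5.91% larger and 4.09% smaller), by 4.09 for Krt19, 3.81 for Krt7, 3.24 for Krt18 and 3.16 for Krt8. It also exceeded the Sox2-cKO effect by 1.93 for Gata3, 1.84 for Hand1 and 1.15 for Gata2. For the 4 keratins limma's adjusted p was at most 3.87e-08. Against the Nanog-cKO line, the Oct4-cKO effect was larger for the 4 keratins and smaller for Tfap2c (all genes, 7.55% larger and 7.18% smaller). The Sox2-cKO effect was smaller than the Nanog-cKO effect for 8 of the 10, Elf5 and Hand1 being the others (all genes, 6.70% larger and 8.09% smaller).

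The starting points of the lines differed too, in comparisons also chosen after the values were seen. Sox2-cKO ESCs had 6 of the 10 higher than Oct4-cKO ESCs and none lower (all genes, 7.25% and 5.09%), by 6.11-fold for Krt7, 3.91-fold for Krt8, 3.75-fold for Krt18, 5.52-fold for Krt19 and 4.21-fold for Gata2 with Gata3 as the sixth (for these 5, limma, adjusted p at most 2.31e-08). In untreated L-EPSCs 6 of the 10 were higher and 1 lower in the Oct4-cKO line (all genes, 3.78% and 3.69%). The keratins stood above those of the Sox2-cKO line by 2.30-fold, 2.29-fold, 2.52-fold and 3.08-fold in turn (limma, adjusted p at most 0.000199). Gata2 was the one gene lower in Oct4-cKO than in Sox2-cKO L-EPSCs, as it was in ESCs (log2 -0.92; limma, adjusted p = 0.000217). Hence the Dox-treated Sox2-cKO keratin levels were 16605 in sum against 6018 in the ESCs of that line, whereas the Oct4-cKO line went from 1440.1 in ESCs to 40842 after Dox.

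In order of their means over the 9 tet-off groups, Dox-treated Oct4-cKO L-EPSCs were the highest and Dox-treated Sox2-cKO L-EPSCs the next for Elf5, Gata2, Gata3, Tfap2c and all 4 keratins, with the values of the 2 groups apart in each. Sox2-cKO ESCs came next for Elf5, Krt7, Krt8 and Krt18. The lowest group was Nanog-cKO ESCs for 8 of the 10, whereas Krt8 was lowest in untreated Nanog-cKO L-EPSCs (176) and Elf5 had 3 Nanog-cKO groups with overlapping values at the bottom. Neighbours that overlapped included Oct4-cKO ESCs and untreated Nanog-cKO L-EPSCs for Krt19 (153 and 152) and the 3 Nanog-cKO groups for Hand1. For Cdx2 the order was led by the 3 Oct4-cKO groups, in which ESCs and untreated L-EPSCs overlapped (30.4 and 27.2).

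The makeup of the keratin pairs was compared per kilobase of transcript, which allows levels of different genes to be set side by side. The ratio of Krt8 to Krt18 per kilobase lay between 0.574 and 1.22 in 22 of the 24 libraries, and between 8.49 and 9.49 in the 2 J1 ESC libraries. In those, Krt8 was at 594 and 575 normalized counts while Krt18 was at 48.5 and 52.6. The 18 tet-off libraries covered keratin sums from 453 to 41210 normalized counts with this ratio between 0.574 and 1.22. The tables were normalized separately, but a ratio within a library does not depend on that.

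Among the type I chains, the mean share of Krt19 per kilobase was larger at each step from ESCs to Dox-treated L-EPSCs. In the Oct4-cKO line it was 21.1% ± 1.20 in ESCs, 50.6% ± 0.77 in untreated and 53.3% ± 0.311 in Dox-treated L-EPSCs (SD, n = 2). It was 28.4% ± 1.10, 45.6% ± 0.597 and 53.8% ± 0.42 in the Sox2-cKO line and 28.8% ± 6.71, 37.2% ± 1.33 and 47.0% ± 1.58 in the Nanog-cKO line. The groups did not overlap within a line, but with 2 libraries against 2 an exact permutation test of such a share cannot give a two-sided p below 0.333, so these are descriptions.

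**Figure D4:**
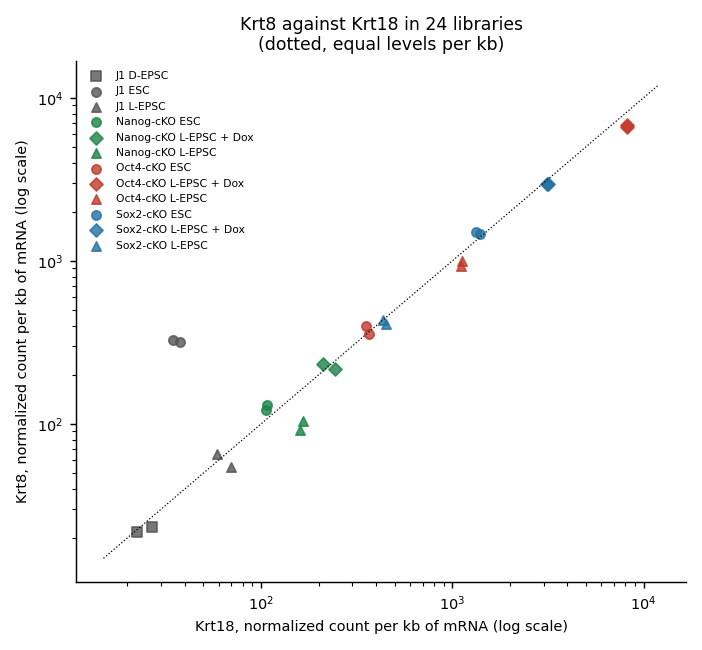
Krt8 against Krt18 per kilobase of transcript (both axes log scale) in the 24 libraries, with a line at equal levels. The 2 J1 ESC libraries stand 8.49 to 9.49 times above the line, the other 22 within 0.574 to 1.22 times.

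In J1 cells the question was how the genes differed between wild-type ESCs and the 2 kinds of EPSC. Counts were low except for Tfap2c and, in ESCs, Krt8. Against the log2 threshold of 0.6, D-EPSCs had 1 gene higher and 4 lower than ESCs (all genes, 10.8% and 9.98%). L-EPSCs had 2 higher and 3 lower than ESCs (8.80% and 11.5%), and 5 higher and 2 lower than D-EPSCs (4.80% and 8.58%). Keratin sums were 708 in ESCs, 118 in D-EPSCs and 274 in L-EPSCs.

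Krt8 showed the clearest difference, at 594 and 575 in ESCs, 41.9 and 39.2 in D-EPSCs and 98.7 and 117 in L-EPSCs. The 3 pairs were apart, with 14.1-fold less in D-EPSCs and 5.39-fold less in L-EPSCs than in ESCs (limma, adjusted p = 5.07e-07 and 5.31e-06). Krt18, its partner, stood at 48.5 and 52.6 in ESCs, 37.8 and 31.3 in D-EPSCs and 97.7 and 82.7 in L-EPSCs. L-EPSCs held more of it than D-EPSCs (log2 1.36; limma, adjusted p = 0.00251), and its call against ESCs was lost when any 1 of the 4 libraries was left out. Krt19 stood at 45.8 and 59.0 in ESCs, 28.6 and 36.2 in D-EPSCs and 62.7 and 73.6 in L-EPSCs. Its call in L-EPSCs over D-EPSCs (log2 1.05) was likewise lost without any 1 library, and Krt7 was under 21 normalized counts in every J1 library.

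Gata3 stood at 53.0 and 61.8 in ESCs, 6.13 and 7.83 in D-EPSCs and 2.06 and 1.15 in L-EPSCs, the last at the floor of 3 reads per library. Gata3 was lower than in ESCs in both (limma, adjusted p = 0.00139 and 0.000118). By counts the ESC to L-EPSC ratio was 35.2 (11.8 to 173), the bounds being a 95% interval for counting error only. Gata2 stood at 56.6 and 53.5 in ESCs, 2.04 and 15.7 in D-EPSCs and 6.17 and 8.04 in L-EPSCs, and its call against ESCs was lost in D-EPSCs without either ESC library and in L-EPSCs without any 1 of the 4 libraries. Cdx2 was at 25.2 and 27.7 in ESCs, 2.04 and 0 in D-EPSCs and 10.3 and 9.19 in L-EPSCs, with an ESC to D-EPSC ratio of 26.4 (6.99 to 223). That call was also lost without either ESC library.

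Tfap2c was the one gene that D-EPSCs held above ESCs, with 639.8 and 598 in ESCs, 939 and 952 in D-EPSCs and 455 and 426 in L-EPSCs. The 3 pairs did not overlap, and D-EPSCs exceeded ESCs by log2 0.61 (limma, adjusted p = 0.000145), close to the fold threshold and under it, at 0.56, without ESC replicate 2. L-EPSCs differed from D-EPSCs by -1.10 (limma, adjusted p = 1.23e-05). These are RNA levels, and the study reported more Tfap2c protein in both kinds of EPSC than in ESCs, in contrast to the RNA. Hand1 reached 11.3 and 8.04 in L-EPSCs and was at or under 3 reads elsewhere, giving a ratio to ESCs of 7.15 (2.09 to 37.9), and limma's call was lost without any 1 of the 4 libraries. Elf5 was at or under 2 normalized counts in all 6 libraries.

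Summed levels of genes listed as markers of other cell types moved with the J1 groups. The 10 genes listed as fibroblast markers summed to 102070 to 104365 normalized counts in ESCs, 62825 to 62858 in D-EPSCs and 21423 to 21912 in L-EPSCs. The 10 macrophage genes summed to 2791 to 2804, 23704 to 23926 and 17478 to 17573, and no marker of either list was at 0 in a J1 group. In the tet-off libraries the 9 listed fibroblast genes summed to between 492 and 1342 and the 8 listed macrophage genes to between 186 and 760. Lum was at 0 in 8 of the 9 tet-off groups and C1qa in 8 of the 9. Whether the cultured cells themselves expressed these genes, and their part in the J1 differences, was not tested. With Dox the fibroblast sum went from 924 to 976 down to 513 to 514 in the Oct4-cKO line, from 606 to 646 down to 492 to 538 in the Sox2-cKO line, and from 879 to 910.5 down to 544 to 637 in the Nanog-cKO line. The macrophage sum went from 412 to 446 up to 496 to 521 in the Oct4-cKO line, from 392.1 to 413 down to 360 to 370.4 in the Sox2-cKO line, and from 451 to 460 down to 204 to 210.2 in the Nanog-cKO line.

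**Figure D5:**
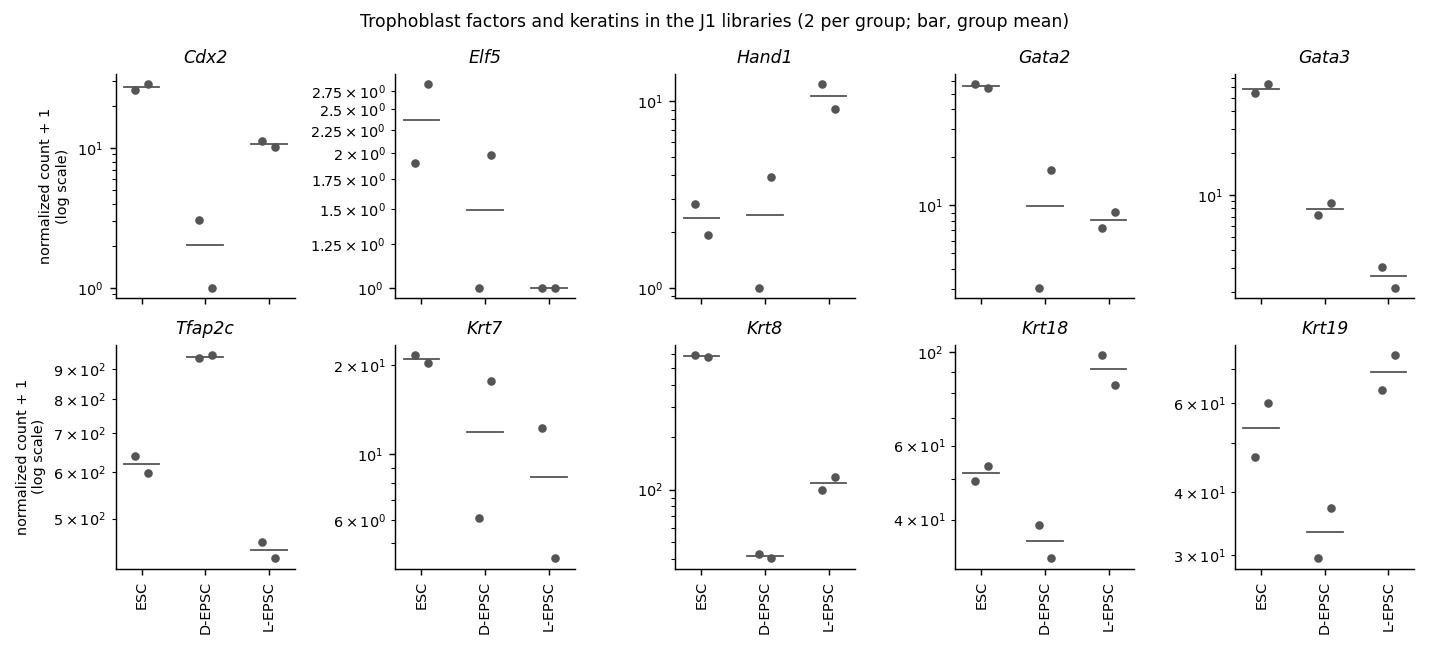
Normalized counts plus 1 (log scale, scaled per gene) in the 6 J1 libraries, 2 per group with the bar at the mean. Krt8 and Gata3 are highest in ESCs, at 585 and 57.4, and Tfap2c is highest in D-EPSCs, at 946.

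The other genes of the trophoblast programme were read from a list of 28 placental and trophoblast genes, of which 25 were tested in the tet-off table. With Dox, 17 of these were higher and none lower in the Oct4-cKO line, 13 higher and 2 lower in the Sox2-cKO line, and 5 higher and 2 lower in the Nanog-cKO line. The shares over all genes were 8.53% higher and 10.8% lower, 7.79% and 7.32%, and 2.80% and 2.59% in the same order of lines. The medians over the list were 1.62, 1.35 and -0.077 on the log2 scale, beside 0 for all genes. Plac1, a placental gene on the X chromosome, was higher in all 3 lines, with means going from 138 to 3303 normalized counts in the Oct4-cKO line, from 58.6 to 1252 in the Sox2-cKO line and from 1.04 to 55.1 in the Nanog-cKO line. The homeobox genes Rhox6 and Rhox9, near copies whose reads the counting could split, were higher by log2 4.01 and 4.09 in the Oct4-cKO line, 3.14 and 3.20 in the Sox2-cKO line and 3.15 and 4.46 in the Nanog-cKO line. Dlx3, a homeobox gene needed for the placental labyrinth, was higher by 4.24 in the Oct4-cKO line, and Peg10, an imprinted gene of the placenta, by 3.76 in the Sox2-cKO line and 2.73 in the Nanog-cKO line. These genes were named for the size of their change and do not stand for the whole list. Prl3b1 and Prl2c2 were at 0 in both Dox-treated Oct4-cKO libraries, and Synb and Prl2c2 in both Dox-treated Sox2-cKO libraries. Tpbpa, Prl3b1, Synb and Prl2c2 were at 0 in both Dox-treated Nanog-cKO libraries. On conversion, 9 genes of the list were called higher and 2 lower in the Oct4-cKO line, 2 higher and 11 lower in the Sox2-cKO line, and 7 higher and 9 lower in the Nanog-cKO line. Over all genes the shares on conversion were 13.0% higher and 15.4% lower, 7.99% and 11.6%, and 12.2% and 14.7% in the same order.

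Genes that anchor keratins or seal epithelia were read against the shares of all genes called with Dox, which were 8.53% higher and 10.8% lower in the Oct4-cKO line, 7.79% and 7.32% in the Sox2-cKO line and 2.80% and 2.59% in the Nanog-cKO line. Of 10 genes of desmosomes and keratin linkers tested, 3 were higher and 1 lower with Dox in the Oct4-cKO line, 2 and 0 in the Sox2-cKO line and 1 and 1 in the Nanog-cKO line. Dsc2, a desmosomal cadherin, was higher in all 3 lines, by 2.27, 1.88 and 1.24. Pkp2, a desmosomal plaque protein, was higher by 1.42 in the Oct4-cKO line, where the linker gene Evpl was lower (log2 -1.77). Of 10 tight junction genes, 3, 2 and 0 were higher and none lower, led by the claudins Cldn3 (2.54 and 2.25) and Cldn7 (2.17 and 1.67) in the Oct4-cKO and Sox2-cKO lines. Of 37 other keratin genes tested, 4 were higher and 4 lower, 4 and 3, and 0 and 2 in the same order of lines, which is near the shares over all genes. Krt80 went from 2.69 to 41.9 normalized counts in the Oct4-cKO line and from 4.28 to 40.3 in the Sox2-cKO line. Krt42 was called lower in all 3 lines, from 19.6 to 0.555, from 39.3 to 0 and from 65.3 to 8.26, and so was Krt17, a keratin of basal and embryonic epithelia.

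Markers of other lineages are given beside the same shares over all genes. Of 18 primitive endoderm genes, 2 were higher and 6 lower with Dox in both the Oct4-cKO and the Sox2-cKO line, and 0 and 2 in the Nanog-cKO line. Lama1, a laminin chain of the endoderm's basement membrane, was lower (log2 -2.62 and -2.31), as was Gata4 in the Oct4-cKO line (-2.93), while Apoa1 was higher there (2.95). Of 12 mesoderm genes, none were higher and 4, 5 and 1 lower. Tbx3, a factor of pluripotency as well as of mesoderm, was lower (log2 -3.20 and -1.07), and Kdr, a receptor of vascular progenitors, was called lower in all 3 lines, from means of 29.0, 26.7 and 25.04 to 6.72, 2.05 and 7.69. Of 7 macrophage genes tested, 2, 1 and 0 were higher and 0, 0 and 1 lower, and of 8 fibroblast genes 2, 0 and 0 were higher and 4, 1 and 1 lower. The one macrophage marker called in both the Oct4-cKO and Sox2-cKO lines was Csf1r, which trophoblast also expresses, at 66.7 normalized counts against 7.63 in the Oct4-cKO line.

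Over the 18 tet-off libraries, the profile of each gene was compared with those of the 13832 genes averaging 10 normalized counts or more, by Pearson's r of the log2 values. These libraries come from 9 groups of 2 and share lines and treatments, so r is given as a description. The closest genes to Krt18 were Krt7 (r = 0.990) and Krt8 (r = 0.990), and Krt7 and Krt8 were alike at r = 0.987. The next was a serine protease inhibitor gene, Serpinb9g, for Krt7 (0.977) and Krt18 (0.980), and Serpinb9f for Krt8 (0.984), both members of a cluster of near copies. Krt19 was closest to Nxf7 (0.985), Sbsn (0.984) and Tpm1 (0.983), and Gata2 to Vgll1 (0.977), Dnase1l3 (0.977) and Zxdc (0.974). The closest gene was Irx3 for Tfap2c (0.980), Fam122b for Gata3 (0.974), Rbmx for Elf5 (0.963), Tmem64 for Hand1 (0.938) and Mical2 for Cdx2 (0.916). Among the 10 genes themselves, the least alike were Hand1 and Tfap2c (r = 0.190).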

How the data were processed

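Per the study's methods, total RNA was extracted with Trizol. Poly(A) RNA was selected from it and made into libraries with the Universal Plus mRNA-Seq kit. Per the submitters' processing notes, the authors used Trim Galore (0.6.4), STAR (2.7.9a), HTSeq (0.11.2) and DESeq2 (given as 4.1.1) with NCBIM37 (mm9). The authors deposited normalized signal, that is HTSeq gene counts divided by DESeq2 size factors, in one table per experiment. The strand setting is not given in the sources used here, so reads of a gene and an antisense partner cannot be told apart. Dividing each column by its smallest step returned whole reads for 99.9957% to 100% of values (within 0.01 of a whole number). Every column was assigned to a sample, and 0 per-sample columns were left out.

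Groups of 2 libraries were compared within a table with limma (3.58.1, trend) on log2(normalized count + 1), all groups of the table in one fit, over genes with more than 1 read in total (21533 J1, 24007 tet-off), with Benjamini-Hochberg adjustment over all of them. A call needed an adjusted p under 0.05 and a log2 difference beyond 0.6 (J1, conversion, lines) or 1 (Dox). edgeR (4.0.16) quasi-likelihood on the recovered reads called 4224, 3378 and 1224 genes with Dox in the Oct4-cKO, Sox2-cKO and Nanog-cKO lines, against 4637, 3628 and 1293 by limma. The other alternatives were DESeq2 (1.42.0), TMM factors, median centring, a mean of at least 10, no filter, a pseudocount of 0.1, only the groups compared, another fold threshold, a replicate block and leaving out each library. The scripts were tested on simulated data. A group with at most 3 reads in each library was treated as at the floor.

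The 10 genes and all gene lists were chosen with earlier results of these data known. All 10 are reported, with the targeted genes, at most the 4 largest called changes per list (mean of at least 10 normalized counts) and the 3 most alike genes. Promoters were matched by symbol to RefSeq (GRCm38.p6), gene positions by gene ID to the NCBIM37 annotation.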

Additional observations from a re-analysis of the deposited data

Results flagged for a closer look

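Effects of the same contrast were set against each other between lines by interaction terms of the limma fit, and 35 such differences among the 10 genes passed the adjusted p of 0.05 and the fold threshold. All are on the log2(normalized count + 1) scale with 2 libraries per group. The causes were not tested.

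For the Dox effect, Gata2 rose more in the Oct4-cKO than in the Sox2-cKO line by 2.17. The Oct4-cKO effect minus the Nanog-cKO effect was 2.97 for Elf5, 3.09 for Gata2, 2.10 for Gata3, 1.78 for Tfap2c, 2.16 for Krt7, 1.60 for Krt8, 2.40 for Krt18 and 1.97 for Krt19. The Elf5 value rests on Nanog-cKO libraries at the floor. The Sox2-cKO effect minus the Nanog-cKO effect was 1.71 for Gata3, 1.33 for Tfap2c, 2.10 for Krt7, 1.60 for Krt8, 2.36 for Krt18 and 2.25 for Krt19. The Nanog-cKO libraries are common to both sets.

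The conversion effects were compared between lines after their values were seen. Oct4-cKO minus Sox2-cKO gave 1.84 for Hand1, 1.15 for Gata2, 1.93 for Gata3, 3.81 for Krt7, 3.16 for Krt8, 3.24 for Krt18 and 4.09 for Krt19. Oct4-cKO minus Nanog-cKO gave -0.935 for Tfap2c, 0.948 for Krt7, 1.71 for Krt8, 1.02 for Krt18 and 2.38 for Krt19. Sox2-cKO minus Nanog-cKO gave -2.52 for Cdx2, -0.927 for Gata2, -2.50 for Gata3, -1.44 for Tfap2c, -2.87 for Krt7, -1.45 for Krt8, -2.23 for Krt18 and -1.70 for Krt19. In the last set the Cdx2 and Gata3 values rest on Nanog-cKO ESC libraries with at most 4 reads of the gene.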

How the results depend on the processing

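Of 1794 values of single genes under alternatives, 1668 stayed on their side of the call, 88 lost it, 38 gained it and 0 reversed. Leaving out 1 library gave 2 to 5 genes called for J1 D-EPSCs against ESCs (5 with all libraries), 2 for J1 L-EPSCs against ESCs (5), 3 to 4 for J1 L-EPSCs against D-EPSCs (7), 4 to 8 for Nanog-cKO conversion (6) and 2 to 4 for Nanog-cKO Dox (2). With only the groups compared in the fit, 3 were called for J1 L-EPSCs against D-EPSCs and 3 for Nanog-cKO conversion, and with the lower fold threshold 4 were called for Nanog-cKO Dox. The Oct4-cKO and Sox2-cKO counts with Dox stayed within 8 to 9 and 7 to 9, and the 3 interaction counts of the Dox effect within 1 to 1, 7 to 8 and 6 to 8. TMM factors moved no gene of the 10 by more than 0.04 and median centring by no more than 0.08, which took Tfap2c with Dox in the Sox2-cKO line to 0.94, under the threshold. Same-numbered replicates did not deviate together (r from -0.0279 to 0.0205), and the replicate block changed 3 calls, adding Hand1 in the Sox2-cKO minus Nanog-cKO Dox effect (-1.19) and dropping Hand1 in J1 L-EPSCs against ESCs (2.19) and against D-EPSCs (2.41). Counts near 3 reads limit Elf5 in the J1 and Nanog-cKO libraries, and Cdx2 and Gata3 in some of both. Such counts also limit Hand1, Gata2 and Krt7 in some J1 libraries.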
